A study of Mus musculus with 6 samples.

Results

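The prostaglandin and leukotriene pathway was examined through 10 genes, Pla2g4a, Ptgs1, Ptgs2, Ptges, Ptger2, Ptger4, Alox5, Alox5ap, Alox15 and Ltc4s, which were taken by symbol from the 21720 genes of the deposited RNA-seq table. All 10 were present and all 10 passed the filter on low counts that 14963 genes passed. Tumours were subcutaneous grafts of H22, a mouse hepatocellular carcinoma cell line, labelled wild type and grown in BALB/c hosts, female and 6–8 weeks old. The control group received 0.5% carboxymethyl cellulose sodium, the vehicle, and the luteolin group received 200 mg/kg luteolin, a plant flavonoid. Both were given by gavage once a day for 21 days in 0.2 mL, from a tumour volume of about 50 mm3. Each group gave 3 libraries of whole tumour RNA, so graft cells and the cells of the host were read together, and the sources do not tie a library to 1 mouse. The p values therefore measure only the spread between these libraries. They address whether the transcripts for making and sensing these lipid mediators differed between treated and untreated tumours.

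Prostaglandins and leukotrienes are short-lived signalling lipids made from arachidonic acid, which a phospholipase A2 frees from membranes. Cyclooxygenases turn it into prostaglandin H2, from which terminal synthases make prostaglandin E2 and its relatives, while lipoxygenases lead to leukotrienes and hydroxylated fatty acids. In tumours, prostaglandin E2 acting on its EP2 and EP4 receptors is known to dampen T cells, and leukotriene B4 is known to draw in neutrophils.

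Total counts ranged from 61081637 to 80442954 per library. Levels are given as CPM, with edgeR's TMM factors applied to the totals, and values of a group are listed in the order of replicates 1, 2 and 3. Luteolin replicate 2 stood apart from the rest, with 34% of the tested genes at their highest value in it and a summed level of 7 keratinocyte markers of 8192 CPM. Luteolin replicates 1 and 3 had sums of 364 and 16.1 CPM, and the controls 4.09 to 5.08 CPM. Of these 7 markers 6 lay above every control library in each luteolin library, beside 15.9% of all tested genes. Among the 6 hepatocyte markers checked for the label of the graft, Trf and Afp were abundant with mean control levels of 321 and 56.5 CPM. Ttr, Apoa1 and Hnf4a lay below 1 CPM on average there. The summed level of the 6 was 367 to 423 CPM in the control group and 194 to 355 CPM in the luteolin group. Trf and Afp were below every control in each luteolin library, which held for 12.8% of all tested genes. Alb, Ttr, Apoa1 and Hnf4a overlapped and had higher means in the luteolin group. Alb had 3.06, 60.3 and 0.868 CPM in the control and 133, 26.0 and 31.9 CPM in the luteolin libraries.

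In the luteolin group, 5 of the 10 genes were up-regulated by the criterion of the study (fold change over 2 and unadjusted p under 0.05, called the study's threshold here), and 0 were down-regulated. These were the genes for the phospholipase that frees arachidonic acid (Pla2g4a), the inducible cyclooxygenase (Ptgs2), the EP2 receptor (Ptger2), 5-lipoxygenase (Alox5) and its activating protein (Alox5ap). Over all tested genes, 11.3% were higher and 1.52% lower at that threshold. Without luteolin replicate 2, 4 of the 10 were higher (all but Alox5), against 7.52% of the genes then tested. In whole tumours, more cells of a type and more RNA per cell cannot be told apart. None of the 10 had an adjusted p under 0.05 in edgeR, a level that 1.52% of all tested genes reached, while 5 had an unadjusted p under 0.05, against 20.5% of all. DESeq2 and limma's voom with sample quality weights each placed 4 under an adjusted p of 0.05, namely Pla2g4a, Ptgs2, Ptger2 and Alox5ap. Of the genes of the edgeR comparison with an adjusted p from these tools, 12.5% lay under 0.05 in DESeq2 and 21.4% in voom. The median log2 fold change of the 10 was 1.16, with a range from -0.31 to 2.68, and the median of all tested genes was -0.01. In 6 of the 10 genes every luteolin library lay above every control library, where this held for 15.9% of all tested genes, and in 0 every luteolin library lay below, against 12.8% of all.

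**Figure D1:**
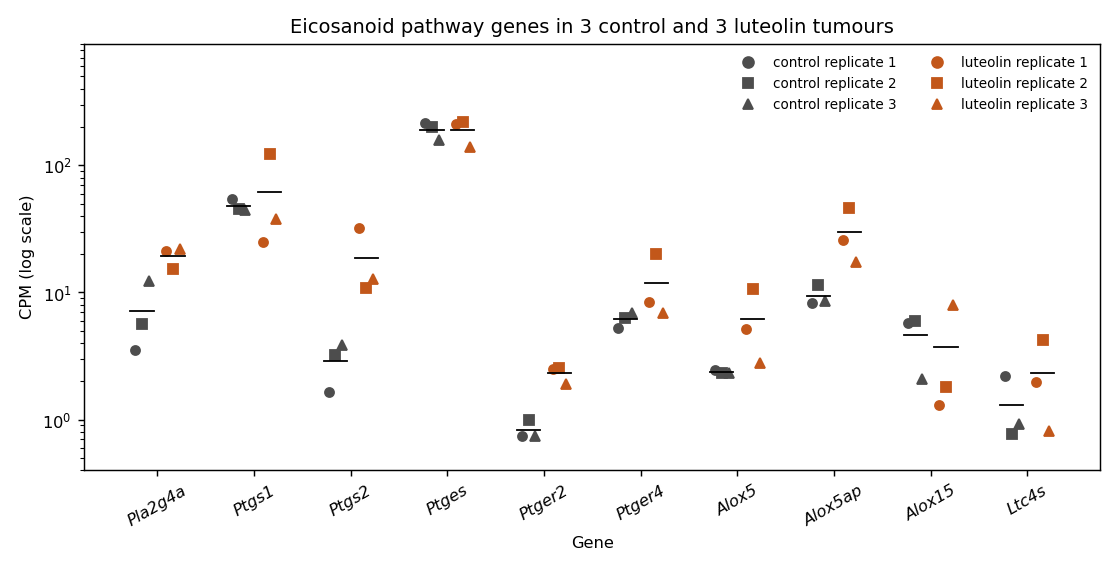
Level of the 10 genes in each library, in CPM on a log axis, with 1 point per library and a bar at the mean of each group (n = 3 per group). The luteolin points of Pla2g4a, Ptgs2, Ptger2, Alox5 and Alox5ap lie above all control points, those of Ptger4 do so by a margin too small to see, and those of Ptgs1, Ptges, Alox15 and Ltc4s overlap the control points.

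Pla2g4a encodes cytosolic phospholipase A2 alpha, the enzyme at the head of the pathway. The controls stood at 3.52, 5.65 and 12.3 CPM, against 21.2, 15.3 and 21.8 CPM after luteolin. The groups did not overlap, although control replicate 3 lay nearer to luteolin replicate 2 than to control replicate 1. This amounted to a log2 fold change of 1.44 with a standard error of 0.47, and edgeR's adjusted p was 0.163. Without control replicate 2 or without luteolin replicate 3 the gene no longer passed the study's threshold, with log2 fold changes of 1.29 and 1.31. On chromosome 1, Pla2g4a and Ptgs2 are neighbours among the protein-coding genes of RefSeq.

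Ptgs2 encodes cyclooxygenase 2, the form that inflammatory signals induce. Control tumours had 1.66, 3.20 and 3.85 CPM, while treated tumours had 32.1, 10.9 and 12.9 CPM. Every luteolin library lay well above every control library, and the highest was luteolin replicate 1. Ptgs2 had the largest fold change of the 10 genes, a log2 value of 2.68 or 6.42-fold, with a standard error of 0.54 and an adjusted p of 0.0661 in edgeR. Omitting any 1 library gave log2 fold changes from 2.03 to 2.98, all past the study's threshold. Without luteolin replicate 2, the library richest in keratinocyte markers, it was 2.98 with an adjusted p of 0.0397 in edgeR. That fit kept luteolin replicate 1, where the summed level of these markers was 364 CPM against 4.09 to 5.08 CPM in the controls. The part of keratinocytes in the Ptgs2 level was not tested.

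Ptgs1, the gene of the constitutive cyclooxygenase, differed in another way. Its controls had 54.8, 45.0 and 44.7 CPM, and its treated libraries 24.9, 122 and 38.0 CPM. Luteolin replicate 2 was far above the control range and the other 2 luteolin libraries were below it. The log2 fold change of 0.36, with a standard error of 0.55 and an adjusted p of 0.779 in edgeR, became -0.60 without luteolin replicate 2 (adjusted p = 0.282), so that its sign rested on that library. Platelets and mast cells are known to carry Ptgs1, and the summed level of 5 platelet markers was 43.2 CPM in luteolin replicate 2, 24.8 and 21.8 CPM in replicates 1 and 3 and 14.4 to 20.8 CPM in the control libraries. Of those markers 1 of 5 was above every control library in each luteolin library (Pf4), beside 15.9% of all tested genes. The part of platelets in the Ptgs1 level was not tested.

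Within a library, the log2 ratio of Ptgs2 over Ptgs1 was -5.02, -3.80 and -3.53 for the controls but 0.36, -3.48 and -1.56 after treatment. All 3 treated libraries exceeded the highest control, and the means differed by 2.56 (exact two-sided permutation test, p = 0.1, the smallest that 3 libraries against 3 allow, and 0.4 after Benjamini-Hochberg adjustment over 16 ratios). In luteolin replicate 2 the excess over control replicate 3 was slight. Per kilobase of exon, Ptgs2 made up 1.91%, 4.37% and 5.25% of the 2 cyclooxygenase transcripts in the controls, and 45.3%, 5.44% and 17.9% after luteolin. Luteolin replicates 1 and 3 thus held a much larger share of the inducible form than any control library did.

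The windows around the annotated starts of the cyclooxygenase genes and of the EP2 and EP4 receptor genes are shown because in each pair 1 gene passed the study's threshold and its partner did not. They are RefSeq sequences of GRCm38.p6 from 250 bases before to 50 bases after the start, and 8 of the 10 genes had such a window, with Alox5ap and Alox15 as the exceptions. Ptgs2 lies at chr1:150099781-150100080 on the + strand, Ptgs1 at chr2:36230176-36230475 on the + strand, Ptger2 at chr14:44987861-44988160 on the + strand and Ptger4 at chr15:5244138-5244437 on the - strand. Capitals mark any match on either strand to a TATA box (TATAAA), a half-site of the cAMP response element (CGTCA), an E-box (CACGTG), a half-site of the C/EBP factors (TTGCG) or a GC box (GGGCGG).
Ptgs2: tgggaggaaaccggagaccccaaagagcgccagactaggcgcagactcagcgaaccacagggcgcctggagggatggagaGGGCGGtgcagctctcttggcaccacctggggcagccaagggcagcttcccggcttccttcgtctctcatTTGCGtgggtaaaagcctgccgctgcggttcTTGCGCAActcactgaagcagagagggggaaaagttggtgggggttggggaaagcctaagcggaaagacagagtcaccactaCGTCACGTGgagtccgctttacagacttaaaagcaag
Ptgs1: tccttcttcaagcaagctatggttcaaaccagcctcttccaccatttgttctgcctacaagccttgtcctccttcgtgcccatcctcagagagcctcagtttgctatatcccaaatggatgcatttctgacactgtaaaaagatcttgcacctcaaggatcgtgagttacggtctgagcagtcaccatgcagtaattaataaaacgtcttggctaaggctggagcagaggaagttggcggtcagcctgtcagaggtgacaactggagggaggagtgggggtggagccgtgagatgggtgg
Ptger2: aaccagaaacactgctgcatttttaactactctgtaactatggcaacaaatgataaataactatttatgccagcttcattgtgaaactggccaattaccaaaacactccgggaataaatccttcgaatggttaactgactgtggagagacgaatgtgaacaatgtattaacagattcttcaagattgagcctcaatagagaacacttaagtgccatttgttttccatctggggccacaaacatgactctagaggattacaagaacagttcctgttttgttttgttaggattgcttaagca
Ptger4: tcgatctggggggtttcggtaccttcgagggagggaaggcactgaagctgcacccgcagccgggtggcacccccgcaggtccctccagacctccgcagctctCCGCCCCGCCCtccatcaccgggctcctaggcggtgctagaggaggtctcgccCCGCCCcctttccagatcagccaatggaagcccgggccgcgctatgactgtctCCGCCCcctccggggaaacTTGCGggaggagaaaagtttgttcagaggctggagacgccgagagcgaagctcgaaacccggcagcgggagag

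The Ptgs2 window held a CRE half-site whose last bases overlap an E-box, 3 matches to the C/EBP half-site, 2 of them overlapping on opposite strands, and 1 GC box. The Ptgs1 and Ptger2 windows matched none of the 5 motifs, and the Ptger4 window held 4 GC boxes, 2 of them sharing a base, and 1 C/EBP half-site. Of the 32851 windows of this length in the RefSeq table, 20.8% held the CRE half-site, 7.15% the E-box, 17.4% the C/EBP half-site, 35.7% the GC box and 13.6% the TATA box. A match describes letters and not a bound site, and 37.7% of the bases were G or C in the Ptger2 window against 67.0% in the Ptger4 window, 59.3% in the Ptgs2 window and 50.7% in the Ptgs1 window.

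Ptges encodes microsomal prostaglandin E synthase 1, which makes prostaglandin E2 from the cyclooxygenase product. It was the most abundant of the 10 genes, with 216, 199 and 158 CPM in controls and 210, 218 and 138 CPM in treated tumours. The groups covered nearly the same range, with a log2 fold change of -0.02, a standard error of 0.22 and an adjusted p of 0.977 in edgeR. Ptges2, a second synthase of prostaglandin E2, averaged 27.4 ± 6.29 CPM in controls and 31.9 ± 5.10 CPM after luteolin (SD, n = 3 each). The log2 ratio of Ptges over Ptges2 did not overlap between the groups and was lower after luteolin, with a difference of -0.27 (2.81 ± 0.14 in the control and 2.55 ± 0.13 in the luteolin group, SD, n = 3 each; exact two-sided permutation test, p = 0.1, adjusted 0.4).

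Ptger2, the gene of the EP2 receptor, had the lowest mean CPM of the 10 in each group, though in the luteolin group its mean of 2.31 ± 0.361 lay within the spread of Ltc4s at 2.32 ± 1.72 (SD, n = 3). Controls gave 52, 64 and 48 counts, or 0.744, 0.988 and 0.744 CPM. Treated libraries gave 153, 212 and 121 counts, or 2.50, 2.54 and 1.89 CPM. The 3 luteolin libraries lay close together and above all controls. At a log2 fold change of 1.48, with a standard error of 0.42 and an adjusted p of 0.125 in edgeR, Ptger2 passed the study's threshold with any library left out, between 1.38 and 1.61.

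Ptger4, which encodes the EP4 receptor, had 5.27, 6.33 and 6.92 CPM in untreated and 8.38, 20.1 and 6.92 CPM in treated tumours. Luteolin replicate 3 equalled control replicate 3 to 3 digits, so the separation of the groups was nominal, and luteolin replicate 2 was highest. Its log2 fold change of 0.93, with a standard error of 0.44 and an adjusted p of 0.297 in edgeR, was 0.33 without luteolin replicate 2. Without luteolin replicate 3 it was 1.14 and passed the study's threshold (adjusted p = 0.190 in edgeR). The log2 ratio of Ptger4 over Ptger2 was 2.86 ± 0.27 for controls and 2.19 ± 0.68 after luteolin (SD, n = 3 each), and the groups overlapped (exact two-sided permutation test, p = 0.3).

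Alox5 encodes 5-lipoxygenase, the first enzyme of leukotriene synthesis. Its control values of 2.45, 2.33 and 2.34 CPM spanned a very narrow range, and those after luteolin were 5.16, 10.6 and 2.79 CPM. Luteolin replicate 3 was only slightly above the controls. A log2 fold change of 1.38 was fitted, with a standard error of 0.52 and an adjusted p of 0.201 in edgeR. It was 0.76 without luteolin replicate 2 and missed the study's threshold in 4 of the 6 fits that left out a library, namely each control library, where the log2 fold change was 1.33 to 1.37, and luteolin replicate 2.

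Alox5ap encodes the membrane protein that presents arachidonic acid to 5-lipoxygenase. It measured 8.2, 11.4 and 8.59 CPM without and 26.0, 45.8 and 17.3 CPM with luteolin. All luteolin libraries were above all controls, in the same order as for Alox5. Its log2 fold change of 1.66, with a standard error of 0.38 and an adjusted p of 0.0856 in edgeR, passed the study's threshold with any library left out, and its lowest value was 1.22, without luteolin replicate 2. The log2 ratio of Alox5ap over Alox5 was 1.96 ± 0.29 without and 2.35 ± 0.26 with luteolin, with overlap (SD, n = 3 each; exact two-sided permutation test, p = 0.2).

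Ltc4s, which encodes the synthase of leukotriene C4, had 2.22, 0.772 and 0.930 CPM in controls, compared with 1.96, 4.20 and 0.814 CPM in treated libraries. The groups overlapped widely, since the value of luteolin replicate 3 fell among the controls. Fitted over all libraries its log2 fold change was 0.83, with a standard error of 0.72 and an adjusted p of 0.581 in edgeR, and it was 0.10 without luteolin replicate 2.

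Alox15 encodes the 12/15-lipoxygenase of mouse macrophages and eosinophils. Untreated tumours showed 5.77, 5.98 and 2.08 CPM and treated ones 1.31, 1.82 and 8.01 CPM. The lowest and the highest library both belonged to the luteolin group. At a log2 fold change of -0.31, with a standard error of 0.78 and an adjusted p of 0.873 in edgeR, the spread within the groups was larger than the difference between them. Without luteolin replicate 3 the value was -1.61 and passed the study's threshold (adjusted p = 0.209 in edgeR), and without luteolin replicate 1 it was 0.09. The log2 ratio of Alox5 over Alox15 was 1.96 and 2.52 in luteolin replicates 1 and 2 and -1.51 in replicate 3, where the controls lay between -1.35 and 0.17 (exact two-sided permutation test, p = 0.4). Of the markers of eosinophils, Epx was at 0 in all libraries, and 0 of 5 lay above every control library in each luteolin library. The summed level of the 5 was 1.28 to 2.06 CPM in the control and 0.946 to 4.65 CPM in the luteolin group. It was highest in luteolin replicate 3, as for Alox15. Among the controls it was lowest in replicate 2, where Alox15 was highest. The part of eosinophils in the Alox15 level was not tested.

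**Figure D2:**
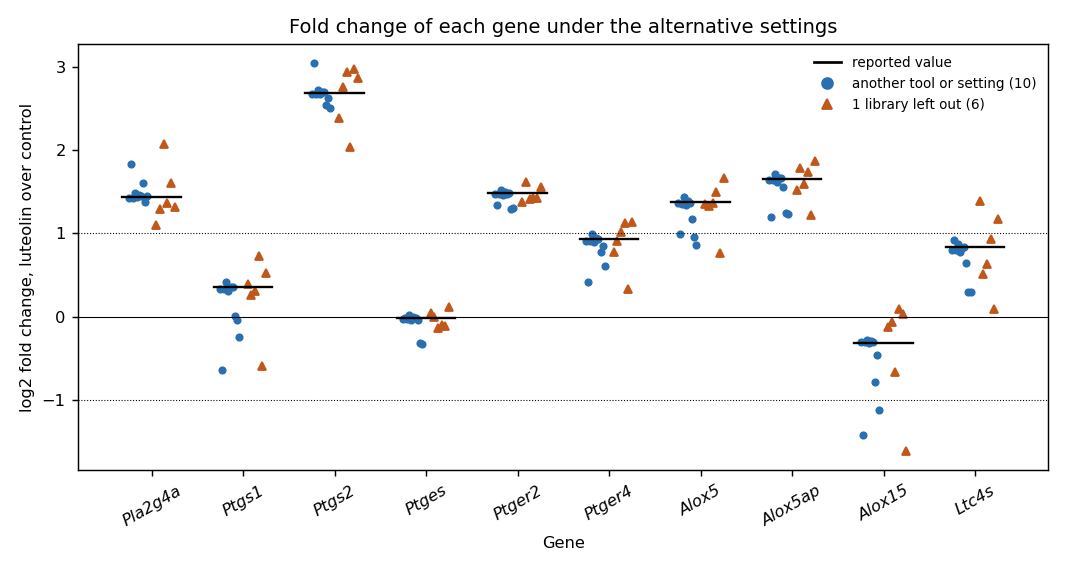
Log2 fold change (luteolin over control) of the 10 genes as reported (black lines), under 10 other tools or settings (blue circles) and with each of the 6 libraries left out (orange triangles). Dotted lines mark a fold change of 2 in either direction. All values of Ptgs2, Ptger2, Alox5ap and Pla2g4a lie above a log2 value of 1, those of Alox5 fall on both sides of it, and those of Ptgs1, Ptges and Alox15 fall on both sides of 0.

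Compared per kilobase of exon, the order of the 10 genes shifted between the groups. In the control group the mean levels were 52.4 CPM per kilobase for Ptges, 16.8 for Ptgs1 and 6.99 for Alox5ap, each above its successor in every library. Pla2g4a (2.35), Ltc4s (2.0), Alox15 (1.91) and Ptger4 (1.85) followed, with ranges that overlapped from one to the next. Alox5 (0.841) and Ptgs2 (0.651) also overlapped, and Ptger2 came last with 0.224 CPM per kilobase, below the range of Ptgs2. In the luteolin group Ptges was again highest (51.7 CPM per kilobase), and Alox5ap (22.1 ± 10.9) and Ptgs1 (21.5 ± 18.4) could not be ordered beyond their spread (SD, n = 3). From Pla2g4a (6.37 CPM per kilobase) through Ptgs2 (4.18), Ltc4s (3.57), Ptger4 (3.54), Alox5 (2.19), Alox15 (1.54) and Ptger2 (0.627), every neighbour overlapped with the next, and the range of Pla2g4a lay below that of Ptgs1. Ptgs2 stood in the ninth place in the control group and in the fifth in the luteolin group.

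Several of these enzymes are known from leukocytes, and Ptprc, the pan-leukocyte gene of CD45, was itself higher in the luteolin group, with 46.1 to 80.6 CPM in the control and 126 to 148 CPM in the luteolin libraries. Relative to Ptprc in the same library, Ptgs2 was still higher after luteolin without overlap, with a log2 ratio of -3.04 ± 0.94 against -4.43 ± 0.32 (SD, n = 3 each), a difference of 1.39. Ptges was lower relative to Ptprc in every luteolin library (0.45 ± 0.36 against 1.67 ± 0.64). The log2 fold change of Ptges itself was -0.02 and that of Ptprc 1.16, so the lower ratio restates the rise of Ptprc. The ratios of Ptgs2 and Ptges to Ptprc each had p = 0.1 in the exact two-sided permutation test and 0.4 after adjustment over the 16 ratios. For the other 8 genes the ratios to Ptprc overlapped between the groups. Their differences were 0.42 for Pla2g4a, 0.36 for Alox5ap, 0.26 for Ptger2, -0.03 for Alox5, -0.42 for Ptger4, -0.51 for Ltc4s, -1.17 for Ptgs1 and -1.82 for Alox15 (exact permutation p from 0.2 to 0.9). Pla2g4a, Ptger2, Alox5 and Alox5ap, all up-regulated per library total, thus showed no separation of the groups per unit of Ptprc.

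**Figure D3:**
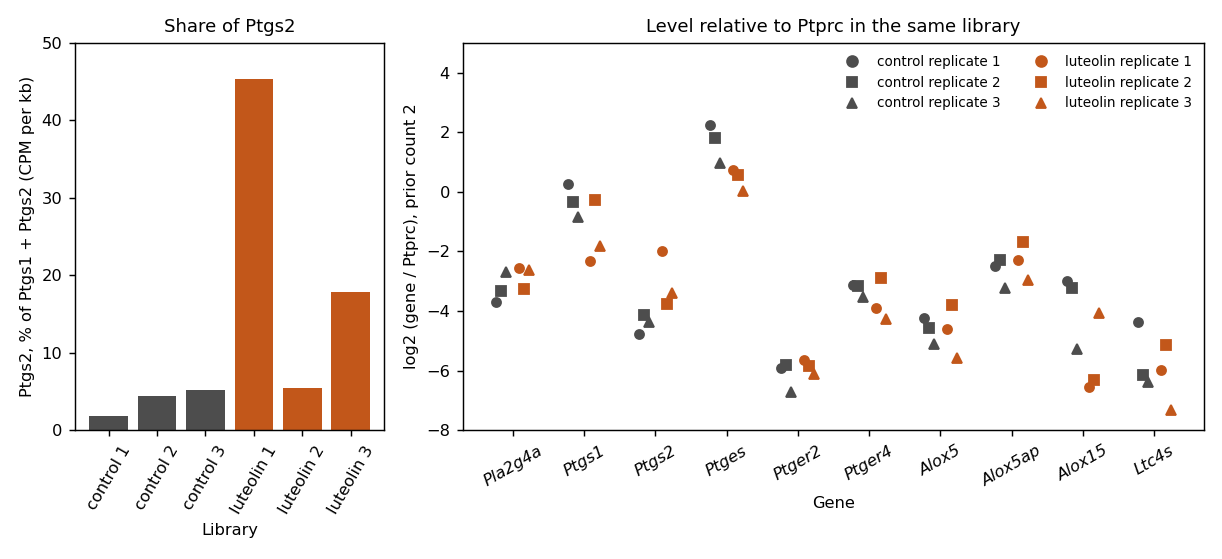
Left, Ptgs2 as a percentage of Ptgs1 plus Ptgs2 in CPM per kilobase of exon, 1 bar per library. Right, log2 ratio of each of the 10 genes to Ptprc in the same library (prior count 2), 1 point per library. The share of Ptgs2 was 1.91% to 5.25% in the control and 5.44% to 45.3% in the luteolin libraries, and relative to Ptprc the luteolin points are separate from the control points for Ptgs2 (above) and Ptges (below). Ptges itself had a log2 fold change of -0.02 and Ptprc one of 1.16.

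Markers of cell types known to carry the pathway differed between the groups to unequal extents. For comparison, 15.9% of all tested genes had every luteolin library above every control library. All 7 mast cell markers were above every control library in each luteolin library, with a summed level of 63.1, 96.1 and 29.6 CPM in luteolin replicates 1, 2 and 3 against 7.77 to 13.9 CPM in the control group. Mcpt4 and Tpsb2, mast cell proteases, were the most abundant of them. For Ms4a2 the margin was slight, with 14 counts in luteolin replicate 1 against 13 in control replicate 3. Among 7 macrophage markers 5 lay above all controls, led in abundance by C1qa and Mrc1, which overlapped, and their sum was 783 to 911 CPM in the control and 1263 to 1796 CPM in the luteolin group. Of 7 neutrophil markers 3 did so (S100a8, S100a9 and Cxcr2), with sums of 4.04 to 6.69 and 54.9 to 105 CPM. Camp and Ngp were at 0 in the controls. After luteolin Camp had 0, 0.0838 and 1.56 CPM and Ngp had 0.0653, 0 and 8.51 CPM. Retnlg and Ly6g overlapped between the groups, and Ly6g stayed below 1 CPM in all libraries. Of 3 resident macrophage markers 1 was above all controls (Timd4), with sums of 3.95 to 6.10 and 6.60 to 18.6 CPM. Lyve1 overlapped, and Gata6 was at 0 in the controls and at 0, 2.13 and 0.391 CPM after luteolin. Of 5 fibroblast markers, led by Col3a1 and Col1a1, 4 lay above all controls (sums of 1005 to 1116 and 1447 to 3772 CPM). Col3a1 and Pdgfra did so only nominally, with 700 and 58.5 CPM in luteolin replicate 3 against 697 and 57.8 CPM in control replicate 3. Of 4 endothelial markers 2 did, Pecam1 and Kdr (sums of 79.2 to 94.3 and 93.1 to 248 CPM). Cdh5, the second in abundance, and Tie1 had luteolin replicate 3 below every control. The part of each cell type in the levels of the 10 genes was not tested.

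Beyond the 10 genes, 43 other genes of the pathway were listed by function, of which 42 were in the table (all but Pla2g2a) and 33 passed the filter on low counts. At the study's threshold 11 of the 33 were higher in the luteolin group and 1 was lower, beside 11.3% and 1.52% of all tested genes. The 11 became 7 with a minimum of 10 counts in every library, 6 with values divided by 4 and 5 with the replicate number as a block. None had an adjusted p under 0.05 in edgeR, while 15 had an unadjusted p under 0.05, against 20.5% of all tested genes. Of the 33, DESeq2 placed 11 and voom 15 under an adjusted p of 0.05, beside the 12.5% and 21.4% given above. Their median log2 fold change was 0.68. Without luteolin replicate 2, 8 were higher and 1 was lower, where 7.52% and 1.84% of all genes then tested were. In 6 of the 33, among them 4 of the 11 called higher (Pla2g2e, Pla2g4f, Alox12 and Alox12b), at least 1 control library had under 10 counts. The filter asks for about 10 counts in 3 libraries, so these 6 passed it only with luteolin libraries, where the 4 are high. Pla2g2e was under 10 in all 3 control libraries. The calls of these 4 are therefore no separate support for a rise of the pathway.

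Among 7 tested phospholipase genes 3 passed the study's threshold as higher, Pla2g2e, Pla2g4e and Pla2g4f, beside 11.3% of all tested genes. Of these, Pla2g2e and Pla2g4f passed the filter on low counts only with luteolin libraries. Pla2g4e had 0.172, 0.263 and 0.434 CPM in the control libraries and 3.69, 23.0 and 0.563 CPM after treatment. Pla2g4f had 3.79, 75.8 and 0.172 CPM after treatment, the last of these within its control range. Their log2 fold changes of 4.97 and 6.85 became 2.89 and 3.12 without luteolin replicate 2. Pla2g2e was low throughout, with 4, 6 and 0 counts in the controls and 45, 84 and 19 after luteolin. Pla2g2f, a phospholipase of the epidermis, had 0 counts in each control library, which allows up to 3, and 326, 12869 and 0 counts in luteolin replicates 1, 2 and 3. Pla2g5 had the highest mean CPM of the 7 tested genes in each group, and its values were lower after luteolin. It had 46.1 to 48.6 CPM in the control and 31.5 to 36.5 CPM in the luteolin libraries. Its log2 fold change of -0.49 (adjusted p = 0.137 in edgeR) was short of the fold change threshold.

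Of 6 tested prostanoid synthase genes 1 rose and 1 fell at the study's threshold, beside 11.3% and 1.52% of all tested genes. Both encode enzymes that make prostaglandin D2. Hpgds, the haematopoietic form found in mast cells and macrophages, had 3.45, 3.40 and 7.29 CPM in the control libraries and 12.1, 27.9 and 7.35 CPM in luteolin replicates 1, 2 and 3. Luteolin replicate 3 was barely above control replicate 3. Its log2 fold change was 1.74 (adjusted p = 0.164 in edgeR), and 1.06 without luteolin replicate 2. Ptgds, the lipocalin type, had 2.10, 2.90 and 2.45 CPM in the control libraries and 0.555, 1.15 and 0.250 CPM in luteolin replicates 1, 2 and 3. It fell by 1.92 on the log2 scale (standard error 0.63, adjusted p = 0.161 in edgeR), with no overlap. Without luteolin replicate 1 the value was -1.82 and missed the study's threshold. Ptges3, the most abundant of these 6 synthase genes, ranged from 108 to 248 CPM in the control and from 81.7 to 233 CPM in the luteolin group.

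Among 4 tested prostanoid receptor genes 1 rose at the study's threshold, beside 11.3% of all tested genes. It was Ptgir, which encodes the prostacyclin receptor, with 1.42 to 2.31 CPM in the control and 3.60 to 4.86 CPM in the luteolin libraries (log2 fold change 1.13, standard error 0.37, adjusted p = 0.167 in edgeR). Ptger1 of the EP1 receptor was the most abundant of the list and overlapped (6.65 to 7.69 against 5.47 to 9.25 CPM). Of the 5 genes for transport and breakdown (Hpgd, Slco2a1, Abcc4, Ptgr1 and Ptgr2) 1 rose at the study's threshold, beside 11.3% of all tested genes. This was Ptgr1, a prostaglandin reductase, with 3.41 to 4.68 CPM in the controls and 9.53, 30.7 and 5.70 CPM after luteolin (log2 fold change 1.96, adjusted p = 0.158 in edgeR). Its value without luteolin replicate 2 was 0.97, under the threshold. Hpgd, which starts the breakdown of prostaglandins, had 0, 44 and 48 counts in the control libraries and 82, 487 and 50 in the luteolin libraries. The log2 ratio of Ptgs2 over Hpgd overlapped between the groups (exact two-sided permutation test, p = 1), and control replicate 1 entered it with 0 counts of Hpgd. Slco2a1, the prostaglandin transporter, overlapped with 53.3 to 70.5 against 41.2 to 67.4 CPM, and Ptgr2 was 69.1 to 79.9 CPM in the control and 39.7 to 61.4 CPM in the luteolin group (log2 fold change -0.49, adjusted p = 0.225 in edgeR).

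Of 8 further tested genes of leukotriene metabolism and sensing, Ltb4r1, Cysltr2 and Ggt5 rose at the study's threshold, beside 11.3% of all tested genes. Ltb4r1, the high-affinity receptor for leukotriene B4 on neutrophils and other leukocytes, rose from 1.22, 0.649 and 0.853 CPM to 5.58, 14.8 and 4.68 CPM. All 3 luteolin libraries were several times above every control. The fitted log2 fold change of Ltb4r1 was 3.20, with a standard error of 0.58 and an adjusted p of 0.0531 in edgeR. It was 2.51 with an adjusted p of 0.0387 in edgeR without luteolin replicate 2. Cysltr2, a receptor for cysteinyl leukotrienes, rested on 12 to 21 counts in the control and 46 to 64 counts in the luteolin libraries (log2 fold change 1.69, adjusted p = 0.173 in edgeR). Ggt5, which converts leukotriene C4 to leukotriene D4, had 1.54 to 3.23 CPM in the control group and 7.48, 15.1 and 3.27 CPM in luteolin replicates 1, 2 and 3 (log2 fold change 1.82, adjusted p = 0.169 in edgeR). In contrast, Lta4h, the enzyme that makes leukotriene B4, was lower in every luteolin library (108 to 130 CPM) than in every control library (147 to 152 CPM), with a log2 fold change of -0.33 and an adjusted p of 0.227 in edgeR. Abcc1, the exporter of leukotriene C4, had 190 to 214 CPM in the control and 199 to 221 CPM in the luteolin group.

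The other lipoxygenase genes followed luteolin replicate 2. Alox12b, an enzyme of the skin barrier, had 0.501, 0.201 and 0.124 CPM in the control libraries and 0.833, 37.5 and 0.376 CPM in luteolin replicates 1, 2 and 3, and Alox12 had 1.19, 4.69 and 0.156 CPM in the latter. In edgeR both rose at the study's threshold, 2 of 3 tested genes of this list beside 11.3% of all tested genes. Both passed the filter on low counts only with luteolin libraries. Their log2 fold changes were 5.54 and 3.39, and both had luteolin replicate 3 within the control range. Without luteolin replicate 2 neither Alox12b nor Alox12 passed (log2 fold changes of 1.14 and 1.82). DESeq2 gave Alox12b no p value, while Alox12, Aloxe3 and Alox8 passed the study's threshold there, Alox8 with 0 counts in each control library. Aloxe3, which acts with Alox12b in the epidermis, had 32.1 CPM in luteolin replicate 2 and at most 5.78 CPM in the other 5 libraries. Alox12e had 0 counts in all control libraries and 30, 1361 and 0 counts in luteolin replicates 1, 2 and 3. The keratinocyte markers, led by Krt14 and Krt10, had the same order of luteolin libraries as Alox12b, with Krt5, Krt14, Krt1 and Dsg3 at 0 in each control library, and the part of skin in these values was not tested.

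**Figure D4:**
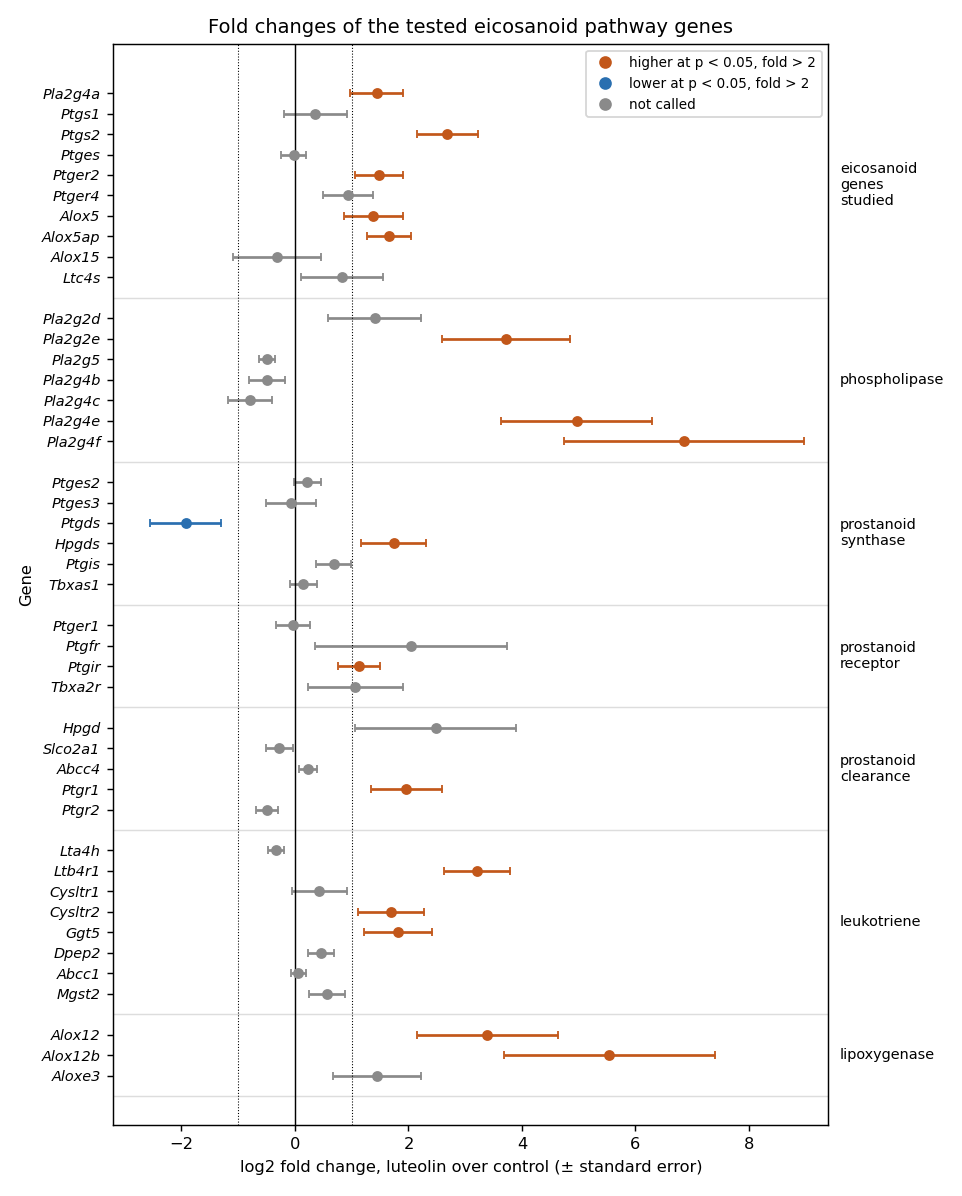
Log2 fold change of luteolin over control with its standard error from edgeR's fit for the 10 genes (top) and the 33 other tested pathway genes by function. Orange points were higher and the blue point lower at the study's threshold, grey points were not called, and dotted lines mark a fold change of 2. The largest values, Pla2g4f with 6.85 and Alox12b with 5.54, carry the widest errors.

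Likeness to the patterns of Ptgs2, Alox5ap and Alox15 was measured by Pearson's correlation of log2 CPM over the 6 libraries among 14871 tested genes outside the lists. The genes most like Ptgs2 were Lrrc17, Man1a and Pmp22, with correlations of 0.993, 0.989 and 0.988. Those most like Alox5ap were F2rl1, Gmfg and Pdia5 (0.997, 0.996 and 0.996), and those most like Alox15 were Uba1, Gm10197 and Zbtb6 (0.996, 0.990 and 0.979). With 6 libraries in 2 groups such values are a description, and Gm10197 did not exceed 0.360 CPM in any library. The correlation ignores the size of a change. Uba1 varied only from 497 to 610 CPM, where Alox15 ranged from 1.31 to 8.01 CPM. Zbtb6 shared the pattern of Alox15 at a higher level, with 41.7, 61.9 and 12.6 CPM in controls and 5.94, 15.4 and 73.6 CPM after luteolin.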

How the data were processed

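RNA-seq libraries of tumour RNA, 3 from the control and 3 from the luteolin group (200 mg/kg), were compared. The table deposited by the authors holds an unscaled whole number for each symbol and library, used here as estimated counts. Multiples of 4 made up 44.8% of values between 1 and 40 (25% if spread evenly), so 1 unit need not be 1 read pair and limits from counts cover counting error only. The submitters' processing notes name HISAT2, StringTie and DESeq2, and the builds mm39 and rn6, with no role. The paper names Trizol and a TruSeq kit, the labels an RNeasy and a SMARTer kit. No column was left out, and the strand setting is not given in the sources used here. Exons of Ptgs1, Ptger2, Ptger4, Alox5ap and Ltc4s overlap a gene on the opposite strand in GENCODE M21, so their reads may be shared.

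Counts were compared in R 4.3.3 with edgeR 4.0.16 (TMM, filterByExpr, quasi-likelihood test, no covariates, two-sided, Benjamini-Hochberg adjustment over 14963 genes). Standard errors were derived from the F statistic. Ratios are differences of log2 CPM (prior count 2). Exon lengths came from GENCODE M21 on GRCm38, and sequences from RefSeq (GRCm38.p6), so no position was taken from the table. Same-numbered libraries were not treated as pairs. The alternatives were DESeq2 1.42.0, limma 3.58.1 voom with quality weights, 2 normalizations, 2 filters, offsets for GC content and length, values divided by 4, the replicate block and each library left out. The script was tested on simulated data. The 10 genes and the lists were chosen with earlier results of these data known. Genes named are the 10, the other pathway genes at the study's threshold, the 2 most abundant of each list and the 3 genes most like each of Ptgs2, Alox5ap and Alox15. Other names, such as Hpgd, Alox12e and Timd4, were chosen after their values were seen.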

Additional observations from a re-analysis of the deposited data

How the results depend on the processing

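Of the 5 genes up-regulated at the study's threshold, Ptgs2, Ptger2, Alox5ap and Pla2g4a passed it under all 10 alternatives that kept every library, and Alox5 under 6 of them. Of the 10 genes, 3 to 5 were higher with each library left out. The cause of the changes below was not tested, except that fewer samples or genes enter some fits.

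At an adjusted p under 0.05, where edgeR called 228 genes, 0 of the 10 genes and 0 other pathway genes, DESeq2 called 1958, 4 and 13 (2 of the 13, Pla2g2f and Alox8, outside the genes edgeR tested), voom 3197, 4 and 15, a minimum of 10 counts 392, 1 and 1, values divided by 4 373, 0 and 1, and the GC content and length offsets 894, 3 and 2. With each library left out the ranges were 0 to 312, 0 to 1 and 0 to 1, and every fit without a control library or without luteolin replicate 1 called 0 genes. At the study's threshold, voom found 498 genes lower and 1 of the 10 (Alox15), and the offsets 460 lower, where 227 were lower in the main comparison. The offsets moved the median of all genes to -0.24, where Ptgs2 was 2.63, and 75.1% of calls were higher against 88.1%. With voom 77.9% were higher. With each library left out, 1139 to 2104 genes were higher and 140 to 305 lower, 0 to 1 of the 10 genes were lower, and 5 to 16 other pathway genes were higher and 0 to 2 lower. Other pathway genes higher numbered 11, but 7 with a minimum of 10 counts and 6 with values divided by 4.

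Same-numbered libraries did not deviate together (correlations of -0.20, -0.09 and 0.06). The replicate block left 35 genes at an adjusted p under 0.05 and 5 other pathway genes higher, and with the offsets it gave 708 genes, 3 of the 10, 1 other gene and 466 lower genes.

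Ptgs1, at 0.36, was -0.65 with voom, -0.0355 with the offsets and -0.25 with the offsets and the replicate block, and -0.60 to 0.73 with a library left out. Ptges, at -0.02, was 0.0240 with upper-quartile normalization, and -0.14 to 0.12 with a library left out. Alox15, at -0.31, ranged from -1.61 to 0.0913 with a library left out. Log2 ratio differences that changed sign with a library left out ranged from -1.005 to 0.89 for Ptgs2 over Hpgd, from -0.0238 to 0.43 for Ptger2 over Ptprc, from -0.46 to 0.43 for Alox5 over Ptprc and from -1.02 to 0.12 for Ltc4s over Ptprc. Cysltr2 and Pla2g2e rested on few counts, and the part of depth was not tested.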
